A study of Mus musculus with 20 samples.

Results

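The adipokines examined here were 6 hormones and carrier proteins that fat secretes, leptin (Lep), adiponectin (Adipoq), resistin (Retn), adipsin (Cfd), retinol binding protein 4 (Rbp4) and apelin (Apln), together with Nampt, an enzyme that is also secreted and was once named visfatin, and the receptors Lepr, Adipor1 and Adipor2. The members were every spot on the array, controls left out, whose gene name was 1 of these 10, and no spot was picked by its measured value. The list of 10 genes itself was drawn up with earlier results of these data known. All 10 genes were on the array, with 22 probes, out of 37074 gene names and 56605 probes in all. The array measured 20 of the 22 probes well enough to test them, and every gene had at least 1 tested probe, out of 39390 tested probes and 25618 tested gene names.

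RNA came from the epididymal fat pad, a visceral depot, of male C57bl/6J mice of the third generation of 2 breeding lines, with 1 array for each of 20 mice. The Ref group (6 mice, STD Cont in the labels) came from the control line, whose growing diet carried high-oleic sunflower oil over the generations, and was fed a low-fat reference diet. The HFoleic group (6 mice, HFD Cont) came from the same control line and was fed a high-fat, high-sucrose diet, and the HFepa group (8 mice, HFD O3) came from the line whose growing diet carried fish oil rich in eicosapentaenoic acid (EPA), an omega 3 fatty acid, and was fed that same high-fat, high-sucrose diet. HFoleic vs. Ref therefore asked what the obesogenic diet did in the control line, HFepa vs. HFoleic what the line did under that diet, and HFepa vs. Ref mixed both. The line, its litters and its supplement cannot be told apart, and the ages in weeks and the litters of the mice were not given in the sources used here.

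White fat is an endocrine organ. Adipocytes release leptin in proportion to the fat they store, and leptin acts on its receptor in the brain to restrain feeding, whereas adiponectin circulates as multimers that act through AdipoR1 and AdipoR2 to favour fatty acid oxidation and the breakdown of ceramides. Resistin is a product of adipocytes in mice, adipsin is complement factor D, the protease that cleaves factor B in the alternative pathway, RBP4 carries retinol in plasma, NAMPT is the rate-limiting enzyme of NAD salvage, and apelin acts through its own G protein-coupled receptor. In obese rodents leptin is known to be high, and adipsin and adiponectin are often low.

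The promoters of the adipokines are shown because leptin and the adipocyte products resistin and adipsin moved in opposite directions here. Each line gives the 250 bases before the annotated start of the gene, 5′ to 3′, from RefSeq on GRCm38.p6. All lie on the + strand. Capitals mark matches to 1 of 5 motifs that were searched on both strands. These were TTGCNNAA, the C/EBP type, TATAA of the TATA box, CCAAT of the CCAAT box, GGGCGG of the GC box, and AGGTCA followed by any base and a second AGGTCA, the direct repeat bound by PPARG with RXR. The C/EBP type motif and the TATA box can overlap themselves on the other strand.
Lep, chr6:29059971-29060220: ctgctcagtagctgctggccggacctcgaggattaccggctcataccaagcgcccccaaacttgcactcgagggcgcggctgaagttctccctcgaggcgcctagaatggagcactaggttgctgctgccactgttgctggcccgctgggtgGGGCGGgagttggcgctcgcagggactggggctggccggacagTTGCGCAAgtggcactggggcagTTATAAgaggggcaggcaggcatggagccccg
Retn, chr8:3655520-3655769: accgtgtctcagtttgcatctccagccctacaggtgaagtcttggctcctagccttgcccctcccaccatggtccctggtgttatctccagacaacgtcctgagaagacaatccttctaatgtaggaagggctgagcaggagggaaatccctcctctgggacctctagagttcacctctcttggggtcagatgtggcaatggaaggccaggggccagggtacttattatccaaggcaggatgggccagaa
Cfd, chr10:79890603-79890852: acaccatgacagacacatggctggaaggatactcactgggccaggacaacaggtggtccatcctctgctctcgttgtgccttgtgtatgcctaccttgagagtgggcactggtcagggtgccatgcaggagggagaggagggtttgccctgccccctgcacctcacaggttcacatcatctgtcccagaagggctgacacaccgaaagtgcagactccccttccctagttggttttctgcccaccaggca
Adipoq, chr16:23146286-23146535: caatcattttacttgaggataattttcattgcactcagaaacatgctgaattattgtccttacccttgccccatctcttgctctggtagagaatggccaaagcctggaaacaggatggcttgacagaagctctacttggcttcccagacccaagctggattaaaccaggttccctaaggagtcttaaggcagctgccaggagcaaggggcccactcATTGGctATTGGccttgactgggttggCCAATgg

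The Lep window held a C/EBP type match, which reads the same on both strands, between 55 and 48 bases before the start. It also held TATAA between 31 and 27 bases before the start, with an overlapping match on the other strand, and 1 GC box. The Adipoq window held 3 CCAAT matches, 2 of them on the other strand, and the Retn and Cfd windows held none of the 5 motifs. Among all 32851 promoter windows of the same length, 9.56% held TTGCNNAA, 22.8% TATAA, 33.8% CCAAT, and 32.7% the GC box, while 0.0335% held the direct repeat. Of the 10 genes, all with a window in the table, 2 held TTGCNNAA (Lep and 1 of 2 windows of Rbp4), the same 2 held TATAA, and none held the direct repeat. A match describes the letters only.

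Each array had 66.06% to 71.88% of its spots well above background, with 0 saturated spots. The 12 adipocyte markers were all measured, and the mean of their log2 signals ranged from 15.31 to 15.87 in Ref, from 15.38 to 15.82 in HFoleic and from 15.31 to 15.73 in HFepa. Only 3 of 8 epididymis markers and 4 of 6 testis markers were above the filter, yet the testis mean stood at 8.1 or more in Ref mice 3 and 6, HFoleic mouse 5 and HFepa mouse 4, against 6.6 or less in the other mice. The epididymis mean was 8.79 and 7.94 in Ref mice 3 and 6 and 8.2 in HFepa mouse 2, against 7.43 or less in the other mice. Leaving out any of the mice named here in turn changed no call among the 10 genes. All 7 liver markers were above the filter, and 1 of them fell in HFoleic vs. Ref, where 16.7% of all genes fell. This was Cyp2e1 (-1.29, adjusted p = 0.0105), whose signal in Ref was 18.1 with an SD of 0.12. The mean over the 7 liver markers ranged from 10.06 to 12.4 in Ref, from 9.9 to 13.48 in HFoleic and from 10.48 to 12.73 in HFepa. The part of such transcripts in the values below was not tested. Levels below are log2 signals after quantile normalization, and each difference is a log2 fold change from limma with its standard error (SE), whose adjusted p was corrected over all 39390 probes and read against a threshold of 0.05. A gene is described by its tested probe with the highest mean, and levels are compared between mice and never between genes.

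The obesogenic diet in the control line changed 5 of the 10 genes. Lep rose, and Adipor1, Adipor2, Retn and Cfd fell in HFoleic vs. Ref, where 31.8% of all 25618 genes passed the same test, 15.2% of them higher and 16.7% lower. None of the 10 passed in HFepa vs. Ref, where 2.46% of all genes did (1.03% higher and 1.42% lower), or in HFepa vs. HFoleic, where 0% did. At an unadjusted p under 0.05 the counts were 8, 6 and 4 of 10, where 42.2%, 21.6% and 20.8% of all genes had such a p. The median difference of the 10 genes was -0.27 in HFoleic vs. Ref, -0.16 in HFepa vs. Ref and 0.1 in HFepa vs. HFoleic, against -0.04, -0.02 and 0.01 over all genes. As HFoleic vs. Ref and HFepa vs. Ref share the 6 Ref mice, their values are set side by side and not compared. The RNA is of whole tissue, in which fewer cells of a type and less RNA per cell cannot be told apart.

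**Figure D1:**
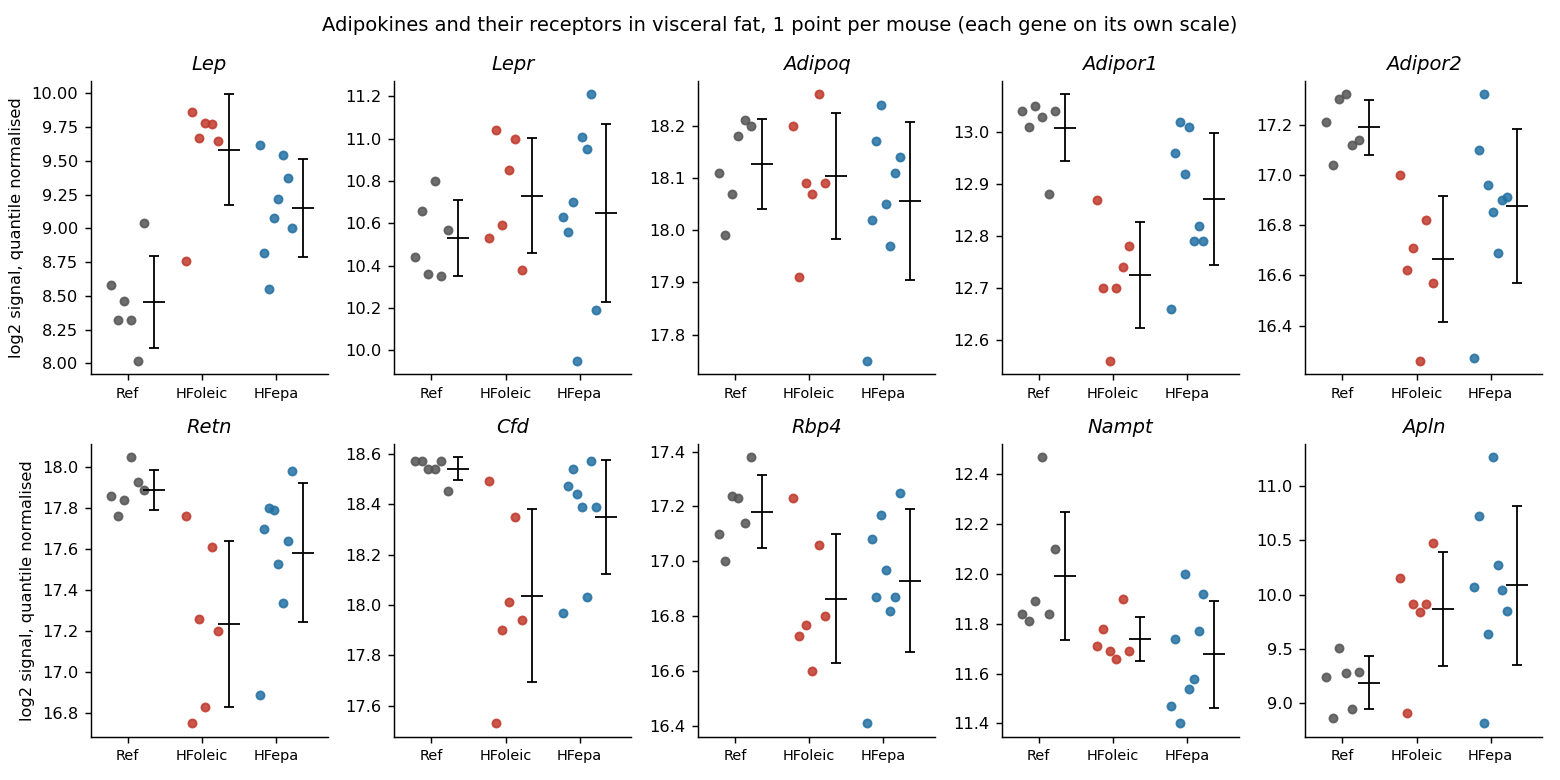
Log2 signal (vertical axis, quantile normalised, own scale for each gene) of the 10 genes in each of the 20 mice, with Ref in grey, HFoleic in red and HFepa in blue, and the mean ± SD of each group in black. Lep was above every Ref mouse in 5 of 6 HFoleic mice, and all 6 HFoleic mice were below every Ref mouse for Adipor1 and Adipor2.

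Leptin rose, and had the largest difference of the 10 genes in HFoleic vs. Ref. The Lep signal ranged from 8.02 to 9.04 in Ref mice with a median of 8.39, from 8.76 to 9.86 in HFoleic mice with a median of 9.72, and from 8.55 to 9.62 in HFepa mice with a median of 9.15. In HFoleic, 5 mice lay between 9.65 and 9.86, above every Ref mouse and every HFepa mouse, while HFoleic mouse 1, at 8.76, lay below Ref mouse 7. Lep was thus 2.18-fold higher in HFoleic than in Ref (log2 1.13, SE 0.2, adjusted p = 0.000741). It was higher within each of the 3 slides, by 0.95, 1.17 and 1.48, where slide 2 held 1 HFoleic mouse. The spot behind these values carries the 60 bases below, which lie at chr6:29020910-29020969 on mm9, in the Lep transcript NM_008493.
Lep probe: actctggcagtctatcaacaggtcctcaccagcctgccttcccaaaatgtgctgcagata

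In HFepa vs. Ref the Lep difference was 0.69 (SE 0.19, 95% confidence interval 0.3 to 1.09, adjusted p = 0.0552), with 5 of 8 HFepa mice above every Ref mouse. The difference was 0.81 without Ref mouse 7 (adjusted p = 0.024) and 0.78 without HFepa mouse 3 (adjusted p = 0.0193), both past the threshold. Without HFoleic mouse 1, which is not in this comparison but enters the common estimate of the spread, it was again 0.69 and passed (SE 0.16, adjusted p = 0.0258). HFepa vs. HFoleic gave -0.43 (interval -0.83 to -0.04, adjusted p = 0.205), and -0.6 without HFoleic mouse 1 (adjusted p = 0.0491), the mouse whose Lep stood apart from the other HFoleic mice. The order of the means was Ref, HFepa, HFoleic, and neither neighbour in that order differed past the threshold with all mice included.

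The leptin receptor did not pass the test with any probe. Lepr, at its brightest probe, ranged from 10.35 to 10.8 in Ref, from 10.38 to 11.04 in HFoleic and from 9.95 to 11.21 in HFepa. The groups overlapped throughout, and the difference of HFoleic vs. Ref was 0.2 (interval -0.16 to 0.57, adjusted p = 0.412). That probe and a dimmer probe are listed for transcript NM_010704. The probe listed for transcript variant NM_146146 was well above background on 0 of 20 arrays and was not tested, like 1 other of the 6 Lepr probes, so that only part of the Lepr transcripts could be read in this tissue. The 3 other tested Lepr probes gave differences between -0.14 and 0.05 in HFoleic vs. Ref. Leprot, which shares part of the Lepr locus and acts on the sorting of the receptor, rose by 0.33 (SE 0.08, adjusted p = 0.00588), and its relative Leprotl1 rose by 0.36 (SE 0.1, adjusted p = 0.0103), both in HFoleic vs. Ref.

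Among 13 genes of leptin signalling, 5 fell in HFoleic vs. Ref and none rose, where 16.7% of all genes fell and 15.2% rose. Irs2, an insulin receptor substrate, fell by 0.99 (SE 0.19, adjusted p = 0.00127), Stat3, the main transcription factor downstream of the leptin receptor, fell by 0.5 (SE 0.13, adjusted p = 0.00617), and Cish, a feedback inhibitor of cytokine receptors, fell by 1.54 (SE 0.45, adjusted p = 0.0133). Irs1 (-0.67, adjusted p = 0.0166) and the adaptor Sh2b1 (-0.15, adjusted p = 0.0404) were the other 2 that fell. Socs3, the classical leptin feedback gene, differed by -0.18 (adjusted p = 0.322). None of the 13 passed in HFepa vs. Ref or HFepa vs. HFoleic, where 2.46% and 0% of all genes did. The median differences of the 13 genes in these comparisons were -0.08 and 0.08.

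Both adiponectin receptors fell in HFoleic vs. Ref, while adiponectin itself did not pass the test. Adipor1 ranged from 12.88 to 13.05 in Ref with a median of 13.03, from 12.56 to 12.87 in HFoleic with a median of 12.72, and from 12.66 to 13.02 in HFepa with a median of 12.87. All HFoleic mice lay below all Ref mice, by a narrow margin, and the HFepa mice overlapped both groups. The difference was -0.28 in HFoleic vs. Ref (SE 0.07, adjusted p = 0.00328), -0.14 in HFepa vs. Ref (adjusted p = 0.211) and 0.15 in HFepa vs. HFoleic (interval 0.02 to 0.27, adjusted p = 0.188). It was lower in HFoleic than in Ref within each slide, by -0.24, -0.33 and -0.32, with 1 HFoleic mouse on slide 2.

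Adipor2 ranged from 17.04 to 17.32 in Ref with a median of 17.18, from 16.26 to 17 in HFoleic with a median of 16.66, and from 16.27 to 17.32 in HFepa with a median of 16.91. The HFoleic and Ref mice again did not overlap, so that 2 of the 10 genes had separate groups in HFoleic vs. Ref, as did 14% of all genes. None of the 10 was separate in HFepa vs. Ref or HFepa vs. HFoleic, where 1.04% and 0.355% of all genes were. Adipor2 was 0.695-fold of Ref in HFoleic (log2 -0.52, SE 0.14, adjusted p = 0.00668), with -0.31 in HFepa vs. Ref (adjusted p = 0.169) and 0.21 between the high-fat groups (interval -0.05 to 0.48, adjusted p = 0.356). HFepa mouse 1, at 16.27, was close to the lowest HFoleic mouse, and HFepa mouse 3, at 17.32, level with the highest Ref mouse.

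Adipoq ranged from 17.99 to 18.21 in Ref, from 17.91 to 18.26 in HFoleic and from 17.75 to 18.24 in HFepa. The groups overlapped, and the differences were -0.03 in HFoleic vs. Ref (interval -0.18 to 0.13, adjusted p = 0.829), -0.07 in HFepa vs. Ref (adjusted p = 0.615) and -0.04 in HFepa vs. HFoleic (adjusted p = 0.772). The sign of the last value turned to 0.13 with the processed signal, to 0.1 with median centring and to 0.01 with the authors' values. The value for HFoleic vs. Ref also moved with the scaling, and was -0.29 (adjusted p = 0.0362) with the processed signal scaled to the 75th percentile of each array and -0.25 (adjusted p = 0.0792) with median centring. Of these 3 scalings, 1 put adiponectin in HFoleic vs. Ref past the threshold.

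**Figure D2:**
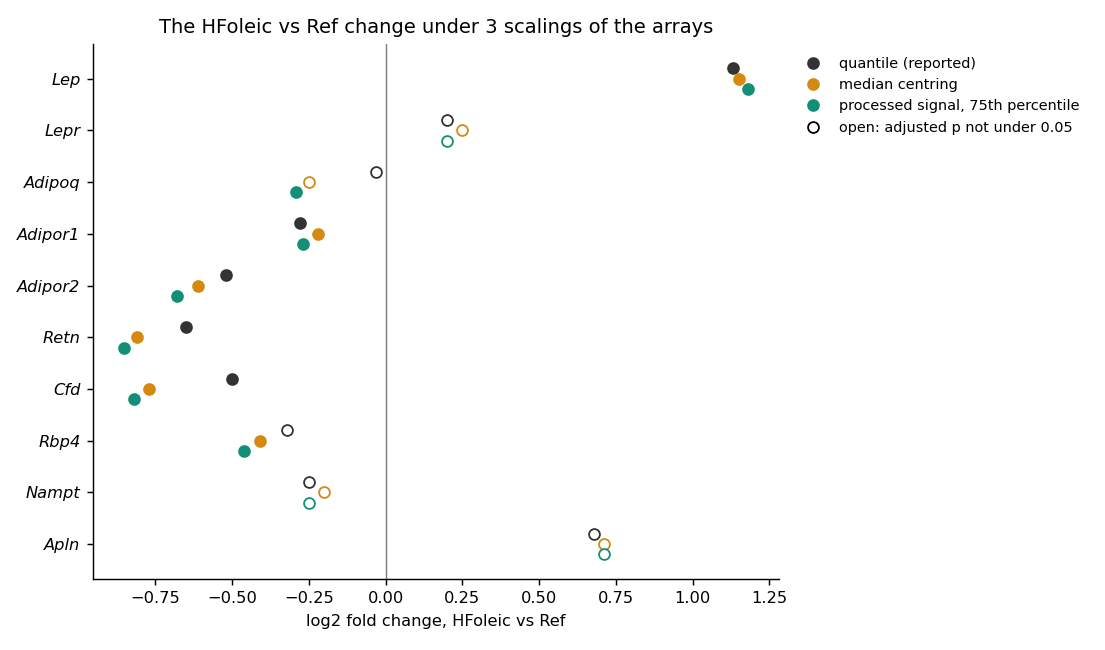
Log2 fold change of HFoleic vs. Ref (horizontal axis) of the 10 genes under 3 scalings of the arrays, with filled points where the adjusted p was under 0.05 and open points where it was not. Lep stayed between 1.13 and 1.18, whereas Cfd moved from -0.5 to -0.82 and Adipoq from -0.03 to -0.29.

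Of 14 genes of adiponectin assembly and signalling, 5 fell in HFoleic vs. Ref and none rose, beside 16.7% of all genes lower and 15.2% higher. Appl2, an adaptor related to Appl1, which binds the adiponectin receptors, fell by 0.59 (SE 0.11, adjusted p = 0.000808), with all HFoleic mice below all Ref mice, while Appl1 itself differed by -0.08 (adjusted p = 0.396). Acer2, an alkaline ceramidase, fell by 0.95 (SE 0.22, adjusted p = 0.00323), and Stk11, the kinase upstream of AMPK, fell by 0.35 (SE 0.09, adjusted p = 0.00528). Prkaa1, an AMPK catalytic subunit (-0.31, adjusted p = 0.03), and Ppargc1a, a coactivator of mitochondrial biogenesis (-0.71, adjusted p = 0.0213), were the other 2. Cdh13, the T-cadherin that binds multimeric adiponectin, gave -0.26 (adjusted p = 0.202). In HFepa vs. Ref none of the 14 passed, where 2.46% of all genes did.

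The C1q and TNF related proteins are paralogs of adiponectin. Of 9 tested, 4 rose and 1 fell in HFoleic vs. Ref, where 15.2% of all genes rose and 16.7% fell. In HFepa vs. Ref 1 rose and 1 fell, where 1.03% of all genes rose and 1.42% fell. C1qtnf1 rose by 0.81 in HFoleic (SE 0.18, adjusted p = 0.00224) and by 0.7 in HFepa (SE 0.16, adjusted p = 0.0343), each against Ref. Fam132a, the gene of adipolin, an insulin-sensitizing hormone of fat, fell by 0.59 in HFoleic (SE 0.1, adjusted p = 0.000642) and by 0.42 in HFepa (SE 0.1, adjusted p = 0.0312). C1qtnf6 rose by 0.7 in HFoleic (SE 0.15, adjusted p = 0.00246) and gave 0.46 in HFepa (adjusted p = 0.0879). C1qtnf5 (0.59, adjusted p = 0.021) and C1qtnf9 (0.47, adjusted p = 0.0174) also rose in HFoleic vs. Ref.

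Resistin and adipsin, both abundant products of adipocytes in the mouse, fell in HFoleic vs. Ref. Retn ranged from 17.76 to 18.05 in Ref with a median of 17.88, from 16.75 to 17.76 in HFoleic with a median of 17.23, and from 16.89 to 17.98 in HFepa with a median of 17.67. In all, 5 of 6 HFoleic mice and 5 of 8 HFepa mice lay below every Ref mouse, and the spread over mice was wider in both high-fat groups (SD 0.4 and 0.34) than in Ref (SD 0.1). The difference was -0.65 in HFoleic vs. Ref (SE 0.17, adjusted p = 0.00711), -0.3 in HFepa vs. Ref (adjusted p = 0.291) and 0.35 in HFepa vs. HFoleic (interval 0.02 to 0.68, adjusted p = 0.223). The related Retnla, which alternatively activated macrophages and adipose tissue express, rose by 0.61 (SE 0.21, adjusted p = 0.0305) in HFoleic, and Retnlg differed by -0.26 (adjusted p = 0.151).

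Cfd ranged from 18.45 to 18.57 in Ref with a median of 18.55, from 17.53 to 18.49 in HFoleic with a median of 17.97, and from 17.97 to 18.57 in HFepa with a median of 18.42. All HFoleic mice but mouse 1 lay below every Ref mouse, and mouse 1 was above Ref mouse 7. The difference of HFoleic vs. Ref was -0.5 (SE 0.13, adjusted p = 0.00742), and it was -0.82 with the processed signal and -0.77 with median centring. The cause of this shift was not tested. Among the tested probes of an array this Cfd probe ranked from 2 to 70, near the top of the scale that all arrays share. Ref mice 2, 3 and 6 all stood at 18.57, from median signals of 436737, 413028 and 347801 before normalization. HFepa vs. Ref gave -0.19 (adjusted p = 0.412) and HFepa vs. HFoleic 0.31 (interval 0.06 to 0.57, adjusted p = 0.168). Within the slides, Cfd was lower in HFoleic than in Ref by -0.42, -0.96 and -0.43, and Retn by -0.55, -1.22 and -0.45. The values of slide 2 rest on 1 HFoleic mouse, mouse 4, which was the lowest of its group for both genes.

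A second Cfd probe lies 28 bases upstream of the first on chromosome 10 and shares 32 of its 60 bases with it. The parts in which they differ are shown because the probes gave different sizes of change. They lie at chr10:79355274-79355301 and chr10:79355334-79355361 of mm9, on the + strand.
Cfd probe 2, first 28 bases: agtgtcatcctaccggatgtggatcgaa
Cfd probe 1, last 28 bases: ggacaccagagacacgtggctcagggaa

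With probe 2 the Cfd signal ranged from 18.21 to 18.37 in Ref, from 16.61 to 18.08 in HFoleic and from 17.11 to 18.29 in HFepa. No HFoleic mouse reached the lowest Ref mouse with this probe. The difference was -0.99 in HFoleic vs. Ref (SE 0.21, adjusted p = 0.00167), or 0.502-fold, against -0.5 with probe 1. It was -0.41 in HFepa vs. Ref (adjusted p = 0.229) and 0.58 in HFepa vs. HFoleic (interval 0.18 to 0.98, adjusted p = 0.132). The difference between the probes was not tested.

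The partners of adipsin in the complement cascade rose where Cfd fell. Cfb, its substrate factor B, rose by 0.79 in HFoleic vs. Ref (SE 0.14, adjusted p = 0.000722), C3, the central component that the alternative pathway cleaves, rose by 0.82 (SE 0.24, adjusted p = 0.0141), and C3ar1, the receptor of the C3a fragment, rose by 1.9 (SE 0.45, adjusted p = 0.00408). The HFoleic and Ref mice did not overlap for Cfb and C3ar1. In HFepa vs. Ref the values were 0.44 (adjusted p = 0.0725), 0.14 (adjusted p = 0.77) and 0.69 (adjusted p = 0.375).

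**Figure D3:**
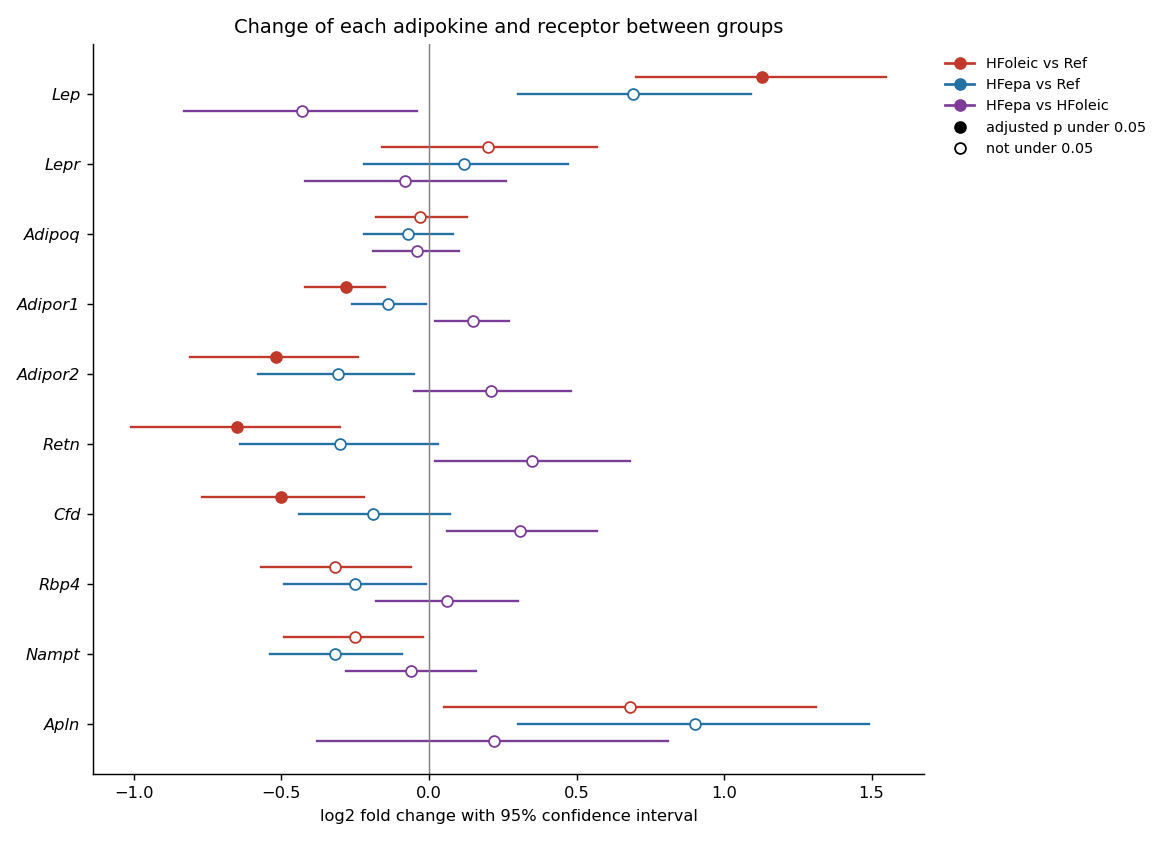
Log2 fold change (horizontal axis, point) with its 95% confidence interval (bar) of the 10 genes in HFoleic vs. Ref (red), HFepa vs. Ref (blue) and HFepa vs. HFoleic (purple), with filled points where the adjusted p was under 0.05. The 5 filled points, Lep at 1.13 and Adipor1, Adipor2, Retn and Cfd between -0.28 and -0.65, all belong to HFoleic vs. Ref.

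Rbp4 and Nampt did not pass the test. Rbp4 ranged from 17 to 17.38 in Ref, from 16.6 to 17.23 in HFoleic and from 16.41 to 17.25 in HFepa, with differences of -0.32 (SE 0.12, adjusted p = 0.0581) and -0.25 (SE 0.12, adjusted p = 0.219) from Ref and 0.06 (interval -0.18 to 0.3) between the high-fat groups. The value of HFoleic vs. Ref lay close to the threshold and passed it with median centring (-0.41, adjusted p = 0.0304), the processed signal (-0.46, 0.0148), the authors' values (-0.3, 0.0483) array weights (-0.36, 0.00671) and the compared groups only (0.0353), and also without HFoleic mouse 1 (-0.39, 0.0178) and without HFoleic mouse 7 (-0.35, 0.0462). Removing mice of the third group had the same effect, as Rbp4 passed without HFepa mouse 1 (adjusted p = 0.0245) and without HFepa mouse 8 (0.0491).

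Around Rbp4, Stra6l, a membrane receptor of RBP4 that was first described in liver and intestine, rose by 2.38 in HFoleic vs. Ref (SE 0.57, adjusted p = 0.00393), or 5.22-fold, with no overlap of the mice. Its value in HFepa vs. Ref was 1.1 (adjusted p = 0.245). Stra6, the other receptor, gave -0.42 (adjusted p = 0.155), and Ttr, the plasma partner of RBP4, gave 0.29 with a wide interval (SE 0.89). Rbp7, a cellular retinol binding protein of fat and its endothelium, fell by 1.02 (SE 0.27, adjusted p = 0.00743). Stra6l and Rbp7 were the 2 calls among 7 tested genes of retinoid transport in HFoleic vs. Ref, where 31.8% of all genes were called. None passed in HFepa vs. Ref, where 2.46% of all genes did.

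Nampt ranged from 11.81 to 12.47 in Ref, from 11.66 to 11.9 in HFoleic and from 11.4 to 12 in HFepa, and was -0.25 (SE 0.11, adjusted p = 0.095) and -0.32 (SE 0.11, adjusted p = 0.105) from Ref. In its pathway, Nmnat3, which makes NAD from the product of NAMPT, fell by 0.73 in HFoleic (SE 0.12, adjusted p = 0.000447) and by 0.48 in HFepa (SE 0.11, adjusted p = 0.0311), each against Ref. Nnmt, which methylates nicotinamide and so removes the substrate of NAMPT, rose by 0.67 in HFoleic (SE 0.12, adjusted p = 0.000774), and Sirt1, an NAD-dependent deacetylase, fell by 0.4 (SE 0.08, adjusted p = 0.00163). Nmrk1, a nicotinamide riboside kinase, fell by 0.35 (adjusted p = 0.0113). Of 10 genes of NAD salvage, 1 rose and 3 fell in HFoleic vs. Ref, where 15.2% of all genes rose and 16.7% fell. Nmnat3 alone passed in HFepa vs. Ref, where 2.46% of all genes did.

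Apelin did not pass the test, with the widest spread over mice of the 10 genes in both high-fat groups (SD 0.53 and 0.73), while its receptor rose in HFoleic vs. Ref. Apln ranged from 8.86 to 9.51 in Ref with a median of 9.26, from 8.91 to 10.48 in HFoleic with a median of 9.91, and from 8.81 to 11.27 in HFepa with a median of 10.05. In all, 5 of 6 HFoleic mice and 7 of 8 HFepa mice were above every Ref mouse, and HFoleic mouse 4 and HFepa mouse 3 were the exceptions, at 8.91 and 8.81. The difference was 0.68 in HFoleic vs. Ref (SE 0.3, adjusted p = 0.0965), 0.9 in HFepa vs. Ref (SE 0.28, adjusted p = 0.0893) and 0.22 between the high-fat groups (interval -0.38 to 0.81). HFoleic vs. Ref passed without HFoleic mouse 4 (0.87, adjusted p = 0.0359), and without HFepa mouse 3 both HFoleic vs. Ref (0.68, adjusted p = 0.0474) and HFepa vs. Ref (1.08, adjusted p = 0.0171) passed. On slide 2, which held HFoleic mouse 4 alone of its group, the difference of HFoleic vs. Ref was -0.38, against 1.11 and 0.69 on the other two slides.

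Aplnr, the apelin receptor, rose by 1.78 in HFoleic vs. Ref (SE 0.29, adjusted p = 0.000471), or 3.44-fold, and all 6 HFoleic mice were above every Ref mouse. Its difference in HFepa vs. Ref was 0.85 (SE 0.27, adjusted p = 0.088), and in HFepa vs. HFoleic it was -0.93 (interval -1.49 to -0.37, adjusted p = 0.12).

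**Figure D4:**
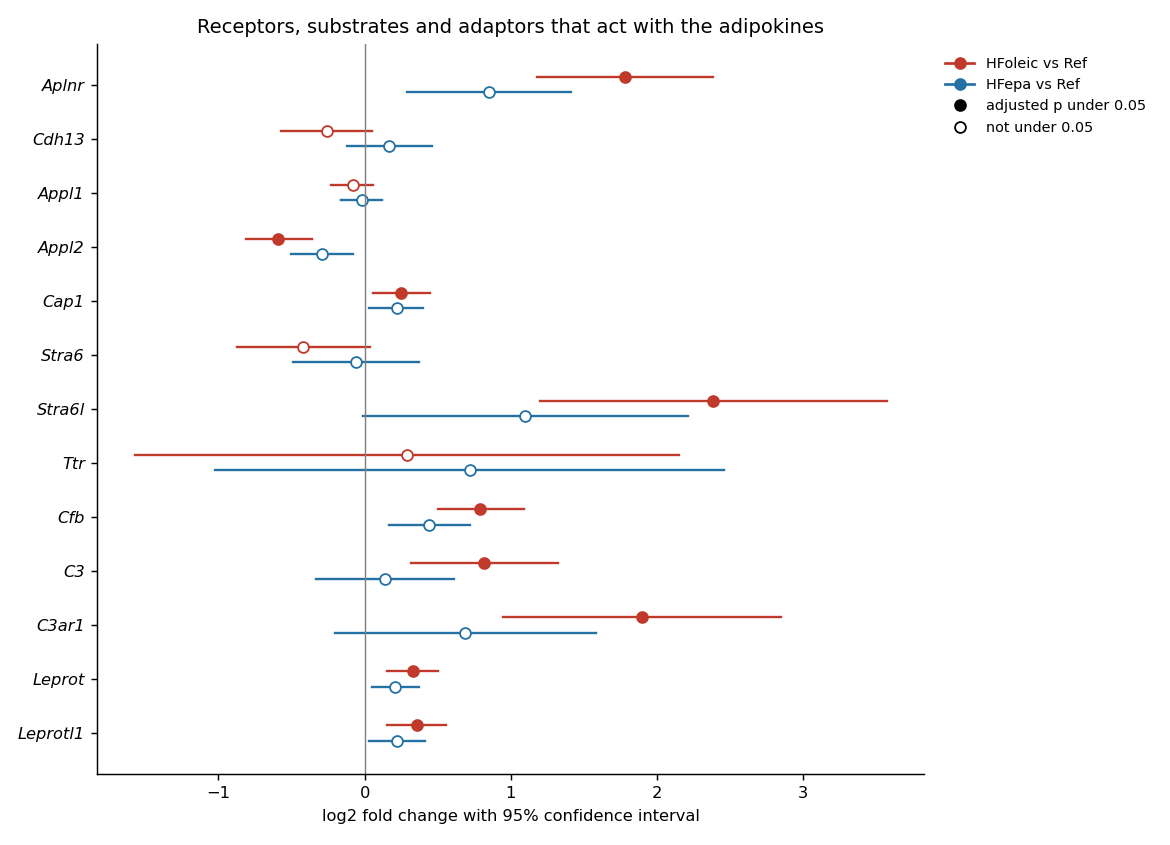
Log2 fold change (horizontal axis, point) with its 95% confidence interval (bar) of 13 genes that act directly with the adipokines, in HFoleic vs. Ref (red) and HFepa vs. Ref (blue), with filled points where the adjusted p was under 0.05. In HFoleic vs. Ref 8 rose and Appl2 fell, where 15.2% of all genes rose and 16.7% fell. No point of HFepa vs. Ref is filled, where 2.46% of all genes passed.

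In all, 8 of 13 direct partners rose and 1 fell in HFoleic vs. Ref, with a median of 0.33 against -0.04 for all genes. The shares of all genes, for these partners and for the marker counts below, were 15.2% higher and 16.7% lower in that comparison. Besides those named above, Cap1, a resistin-binding protein of monocytes, rose by 0.25 (SE 0.09, adjusted p = 0.0438). Markers of several cell types moved in the same comparison. Of 10 macrophage markers, 7 rose and 1 fell in HFoleic vs. Ref, and the mean of their log2 signals ranged from 11.43 to 11.91 in Ref, from 12.21 to 13.2 in HFoleic and from 11.31 to 13.15 in HFepa. All 7 markers of lipid-associated macrophages rose in HFoleic vs. Ref, Trem2 by 4.22 (adjusted p = 0.00067), and the mean over this list ranged from 7.88 to 9.35 in Ref, from 11.19 to 13.08 in HFoleic and from 8.54 to 13.59 in HFepa. None of these 17 markers passed in HFepa vs. Ref, where 2.46% of all genes did. An unadjusted p under 0.05 was found there for 5 of the 10 macrophage markers and 6 of the 7 lipid-associated ones. Of all genes, 21.6% had such a p. The median differences of the 2 lists in HFepa vs. Ref were 0.33 and 2.1, against -0.02 over all genes. Of 12 adipocyte markers, 2 rose and 4 fell in HFoleic vs. Ref. Of 8 progenitor and fibroblast markers 3 rose, the collagens Col1a1 by 1.49 and Col3a1 by 1.37 and the matrix proteoglycan Lum by 1.57, and the mean of the list ranged from 12.2 to 12.74 in Ref, from 12.78 to 13.44 in HFoleic and from 12.26 to 12.97 in HFepa. S100a8, of 3 tested neutrophil markers, rose by 2.46, while S100a9 and Ly6g did not pass, and 1 of 9 endothelial markers fell. The part of these cell types in the adipokine values was not tested.

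The same mice were at the extremes for several genes. HFepa mouse 1 had the highest Lep of its group (9.62) and the lowest Adipoq (17.75), Adipor1 (12.66), Adipor2 (16.27), Retn (16.89), Cfd (17.97) and Rbp4 (16.41), and its lipid-associated macrophage mean, 13.59, was the highest of all 20 mice. HFepa mouse 3 had the lowest Lep (8.55) and the highest Adipor1 (13.02) and Adipor2 (17.32) of its group, with a lipid-associated macrophage mean of 8.54, the lowest of the high-fat mice. HFoleic mouse 1 had the lowest Lep (8.76) and the highest Adipor1 (12.87), Adipor2 (17), Retn (17.76), Cfd (18.49) and Rbp4 (17.23) of its group, with a mean of 11.19, the lowest in HFoleic.

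Leptin relative to adiponectin was taken within each array as the difference of both log2 signals, set to 0 at the mean of Ref. It ranged from -0.52 to 0.51 in Ref (0 ± 0.35, SD, n = 6), from 0.23 to 1.62 in HFoleic (1.15 ± 0.48, n = 6) and from 0.06 to 1.55 in HFepa (0.77 ± 0.47, n = 8). In all, 5 of 6 HFoleic mice were at 1.18 or more, beyond every Ref mouse, and HFoleic mouse 1 was at 0.23. The highest HFepa value, 1.55, belonged to mouse 1. With median centring, the processed signal and the mean of all probes, the difference of the group means ranged from 1.15 to 1.47 in HFoleic vs. Ref. It ranged from 0.77 to 0.89 in HFepa vs. Ref and from -0.58 to -0.39 in HFepa vs. HFoleic. Leptin relative to adiponectin was described without a test.

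**Figure D5:**
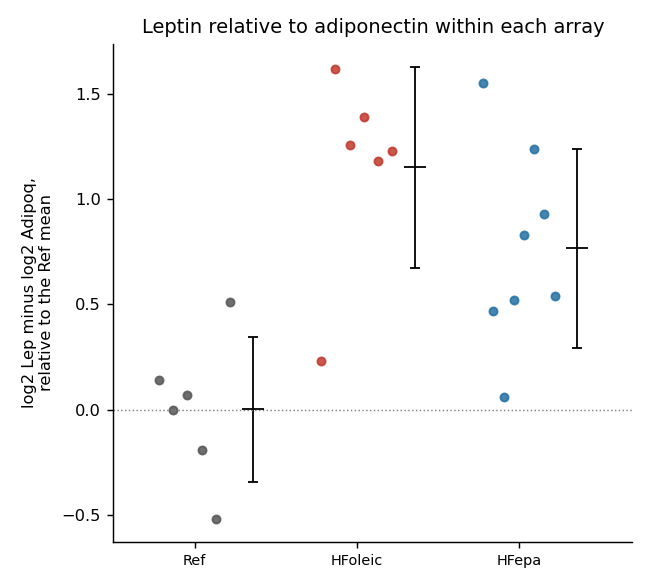
Log2 Lep minus log2 Adipoq within each array (vertical axis), relative to the mean of the Ref mice, with 1 point per mouse and the mean ± SD of each group in black. The means were 0 in Ref, 1.15 in HFoleic and 0.77 in HFepa, and HFoleic mouse 1, at 0.23, lay within the Ref range.

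Counted by probe, 10 of the 20 tested probes passed in HFoleic vs. Ref, 1 higher and 9 lower, where 30.8% of all probes did (15.2% higher and 15.6% lower). None passed in HFepa vs. Ref, where 2.26% of all probes did (0.96% higher and 1.3% lower), or in HFepa vs. HFoleic, where 0.00254% did, a single probe that was higher. The 3 tested Adipor2 probes gave -0.52, -0.42 and -0.9 (adjusted p = 0.00668, 0.0907 and 0.00164), the last at a probe listed for transcript ENSMUST00000188851. The 4 Adipor1 probes gave -0.28, -0.26, -0.17 and -0.23, of which the third did not pass (adjusted p = 0.235), and the second Retn probe gave -0.52 (adjusted p = 0.0125). All probes of a gene that was called lower thus had a negative value. Adipoq, Rbp4, Nampt, Apln and Lep had 1 probe each.

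Apart from the group differences, several of the genes varied together over mice. After removal of the group means, 15 of the 45 pairs of genes were correlated at an adjusted p under 0.05 over the 20 mice, 12 positively and 3 negatively (two-sided permutation tests within groups, 100000 draws, Benjamini-Hochberg over the 45 pairs). Adipoq and Retn were the closest pair by p (r = 0.864, rho = 0.862, permutation p = 1e-05 for r, the smallest these draws can give, and 2e-05 for rho, adjusted p = 0.00045 and 9e-04). This r was 0.812 without the 2 mice farthest from the median and 0.879, 0.881 and 0.869 within the slides. Retn and Rbp4 gave r = 0.871 and rho = 0.811 (permutation p = 5e-05 and 1e-04, adjusted p = 0.00112 and 0.0015), 0.759 without the 2 mice, and 0.981, 0.852 and 0.591 within the slides. Lep varied against Retn (r = -0.634, rho = -0.618, permutation p = 0.00218 and 0.00503, adjusted p = 0.014 and 0.0206), at -0.504 without the 2 mice. The Lep and Retn relation was -0.866 and -0.572 on slides 1 and 2 but -0.0246 on slide 3, and so did not hold within each slide. The same was true of Lep and Cfd (r = -0.642, rho = -0.594, permutation p = 0.00336 and 0.00437, adjusted p = 0.0151 and 0.0197), with 0.0806 on slide 3. The third negative pair, Lep and Adipor2, kept its sign on all 3 slides, at -0.86, -0.881 and -0.43 (r = -0.667, rho = -0.58, permutation p = 0.00268 and 0.00991, adjusted p = 0.0151 and 0.0319), and was -0.477 without the 2 mice. Of the 15 pairs, 14 had the same sign on all 3 slides. All these genes were read from the same array of a mouse.

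The genes whose pattern over the 20 arrays was most like that of Lep were Fam83d (r = 0.97), Serpinf1 (0.965), which encodes the secreted protein PEDF, and Tmem167 (0.964). For Retn they were the transcript ENSMUST00000122117 (0.967), Ces1d, a carboxylesterase of fat that hydrolyses triglyceride (0.965), and Fahd2a (0.958). For Cfd they were Txnip, a thioredoxin-binding regulator of glucose uptake (0.95), Dennd5b (0.945) and Hdgfrp3 (0.943). For Adipor2 they were Epm2aip1 (0.958), Itgb1bp1 (0.95) and Ddrgk1 (0.949), and for Adipor1 AK020820 (0.939), Gm16348 (0.923) and A930033H14Rik (0.92). These are the 3 highest r of all tested genes that are no member, chosen for that, and are given without a test.

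Among 24 other adipokines and their receptors, 10 rose and 6 fell in HFoleic vs. Ref, and 1 passed in HFepa vs. Ref. Over all genes, 15.2% rose and 16.7% fell in the first comparison, and 2.46% passed in the second. Ccl2, the chemokine that draws monocytes into fat, rose by 2.26 (SE 0.37, adjusted p = 0.000482). Nrg4, a hormone that brown fat releases in quantity, fell by 1.42 (SE 0.23, adjusted p = 0.000481), and Agt, the precursor of angiotensin, fell by 1.51 (SE 0.31, adjusted p = 0.00169). Sfrp5, a secreted inhibitor of Wnt signals, rose in both high-fat groups against Ref, by 1.6 in HFoleic (SE 0.36, adjusted p = 0.00292) and by 1.52 in HFepa (SE 0.34, adjusted p = 0.029). Over all the pathway lists, 24 of 86 tested genes rose and 21 fell in HFoleic vs. Ref, and 2 rose and 2 fell in HFepa vs. Ref. In HFepa vs. HFoleic 0 passed, as over all genes, and 30 of the 86 had an unadjusted p under 0.05, as did 20.8% of all genes. The 4 calls in HFepa vs. Ref were C1qtnf1, Sfrp5, Fam132a and Nmnat3.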

How the data were processed

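Visceral fat RNA of 20 mice was measured on 20 Agilent SurePrint G3 mouse arrays of 1 colour. Per the file headers and the submitters' processing notes, the authors read spot intensities with Agilent Feature Extraction 10.10.1.1, without normalization between arrays. They also deposited log2 values of 38168 probes, quantile normalized from the median signal after a filter whose rule they did not state, and these were an alternative here. Of 62976 spots, 59305 were not controls. Median signals were put on the log2 scale, spots marked as non-uniform or as outliers of their kind were set to missing (24 values), and a probe was tested when well above background on at least 6 arrays. Arrays were quantile normalized, which gives every array the same distribution, and limma 3.58.1 in R 4.3.3 fitted 1 mean per group to all arrays (lmFit, eBayes, Benjamini-Hochberg over 39390 probes). Coordinates of probes are those of the files (mm9), and gene names are those of the array design. The fit was tested on simulated data with independent normal noise, where it recovered 93%, 92.5% and 92.5% of 200 probes changed by log2 1 in the 3 comparisons. It also called 8, 9 and 13 unchanged probes. At the reported probes, every difference of the 10 genes but that of Lep in HFoleic vs. Ref was smaller than log2 1. The recovery of such smaller changes was not tested.

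The genes named were every member, every tested direct partner, the 3 genes with the smallest p in HFoleic vs. Ref in each other pathway list, every list gene called in the comparisons with HFepa, and for each called member the 3 genes with the highest correlation. Irs1, Sh2b1, Prkaa1, Ppargc1a, Socs3, C1qtnf5, C1qtnf9, Nmrk1, Trem2, Col1a1, Col3a1, Lum, S100a8, S100a9, Ly6g and Cyp2e1 were named after their values were seen. The members and lists were chosen with earlier results of these data known. Other settings tried were the software's processed signal scaled to the 75th percentile, normexp with an offset of 50, median centring, the authors' values, other filters, marked spots kept, slide or replicate number as a block, array weights, the compared groups only, averaging a gene's tested probes, and leaving out each array. The mice are separate animals, whose litters were not given in the sources used here.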

Additional observations from a re-analysis of the deposited data

Results flagged for a closer look

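Of 33 groups of values, 4 held a mouse whose gap to its nearest neighbour exceeded Dixon's critical value, which chance gives in about 1 of 20 groups. HFoleic mouse 1 had the lowest Lep of its group at 8.76, with the next mouse at 9.65 and the highest at 9.86, and it was also lowest in Lep minus Adipoq at 0.23, with the next mouse at 1.18. Ref mouse 6 had the lowest Adipor1 of Ref at 12.88, with the next at 13.01 and the highest at 13.05. Ref mouse 7 had the lowest Cfd of Ref at 18.45, with the next at 18.54. Before normalization it was not the lowest, as its median signal was 359244 and that of Ref mouse 6 was 347801. Without HFoleic mouse 1 the Lep value of HFoleic vs. Ref was still past the threshold.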

How the results depend on the processing

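The 5 calls in HFoleic vs. Ref (Lep, Adipor1, Adipor2, Retn, Cfd) held their direction and their side of the threshold under 12 other settings and all 20 fits that left out 1 array, and the count of members called was 5 to 7 under these settings and 5 to 6 with 1 array left out. In HFepa vs. Ref 1 member (Lep) passed with the filter on a whole group (adjusted p = 0.0493) and with array weights (0.0303). With 1 array left out this count was 0 to 2, with 1 without HFoleic mouse 1 or Ref mouse 7 and 2 (Lep and Apln) without HFepa mouse 3. In HFepa vs. HFoleic 3 members (Lep -0.49, Retn 0.43, Cfd 0.38) passed with array weights, and 0 to 1 with 1 array left out. Genes of the pathway lists called in HFepa vs. Ref, 4 as reported, numbered 7 with array weights, 0 with the compared groups only, and 0 to 12 with 1 array left out: 12 without HFepa mouse 3, 7 without Ref mouse 7, 2 without Ref mouse 5, 1 without HFepa mouse 5 or Ref mouse 4, and 0 without Ref mouse 3, Ref mouse 6, HFepa mouse 1 or HFepa mouse 6. In HFepa vs. HFoleic they numbered 22 with array weights, 5 with slide as a block and 0 to 15 with 1 array left out, with 15 without HFepa mouse 1 and 12 without HFoleic mouse 1. The sign of Adipoq in HFepa vs. HFoleic turned to 0.13 with the processed signal, 0.1 with median centring and 0.01 with the authors' values, and in HFoleic vs. Ref, where it ranged from -0.06 to 0.01 with 1 array left out, to 0.01 without HFoleic mouse 4. The sign of Lepr in HFepa vs. HFoleic turned to 0.06 with the mean of its probes and to 0.02 without HFepa mouse 4, with a range from -0.16 to 0.02. None of these values passed the threshold, and the cause was not tested.

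The replicate numbers of the labels did not pair the mice. Same-numbered mice had correlations of their deviations from the group means from -0.474 to 0.141 for HFoleic and Ref, from -0.435 to 0.148 for HFepa and Ref, and from -0.587 to 0.559 for HFepa and HFoleic. With the replicate number as a random block (consensus correlation -0.0819) the members called were again 5, 0 and 0. The number of arrays limits the precision of these values, and for Lepr 2 of 6 probes were not well above background on any array.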
